A study of Mus musculus with 27 samples.

Results

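Effector genes of macrophages and granulocytes, the genes these cells use to do their work, were followed on 27 one-colour microarrays of mouse embryonic stem cells (ESCs) differentiating to blood. They are 40 of 37208 genes or transcripts on the array. Their probes were found through RefSeq accessions, and a gene with several probes was read from the probe with the highest mean over all arrays. All 40 had a probe, and 10 had more than 1. By role they are the granule enzymes and lysozymes (Lyz2, Lyz1, Mpo, Elane, Prtn3, Ctsg and Ctss), the phagocyte oxidase (Cybb, Cyba, Ncf1, Ncf4 and Rac2), and the complement C1q chains (C1qa, C1qb and C1qc). The macrophage surface and scavenger genes are Mrc1, Msr1, Adgre1, Aif1, Cd14 and Slc11a1, and the innate receptors and costimulation genes are Tlr2, Tlr4, Tlr7 and Cd86. The pan-leukocyte surface genes are Ptprc, Cd33, Cd52, Cd53, Cd48 and Laptm5, the signalling and cytoskeleton genes are Coro1a, Lcp1, Lcp2, Vav1, Plek and Pstpip1, and the lipid mediator and transport genes are Alox5ap, Hpgd and Slc2a6.

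The study asked what the AP-1 family of transcription factors, dimers formed by proteins such as FOS and JUN, does while mesoderm turns into smooth muscle or blood. All cells came from 1 A2lox ESC line in which a Flag-tagged dominant-negative FOS (dnFOS), placed at the Hprt locus, is switched on by doxycycline (DOX). The dnFOS peptide pairs with JUN proteins and keeps them off DNA. FLK1+ hemangioblast cells were purified from embryoid bodies and put in blast culture without DOX or with 1 µg/ml DOX. Freshly purified FLK1+ cells, and whole cultures grown without and with DOX for 5 h (called FLK1+ 5h) or 24 h (called d1 BC), gave 2 arrays per group. The 4 populations sorted at day 2 of culture without and with DOX were smooth muscle cells (SM), the first and second hemogenic endothelium stages (HE1, KIT+ TIE2+ CD41-, and HE2, KIT+ TIE2+ CD41+), and hematopoietic progenitors (HP, KIT+ TIE2- CD41+). SM had 3 untreated arrays, and every other group had 2. Untreated controls carried the same cassette, and cells without the cassette that were given DOX were not analysed here, so effects of the drug and of dnFOS cannot be told apart. The labels do not say that replicates came from separate cultures, so p-values measure the spread between arrays, which may be technical.

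Macrophages and granulocytes kill microbes with granule enzymes and lysozyme, with an oxidase that makes superoxide, and with receptors that sense bacterial products or bind debris. The oxidase has a membrane core, encoded by Cybb and Cyba, which is switched on by the cytosolic subunits encoded by Ncf1 and Ncf4 together with the GTPase Rac2. Many of these genes are switched on in multipotent progenitors before a mature phagocyte exists, and the ETS factor PU.1, C/EBP factors and RUNX1 are textbook regulators of them.

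Levels are given as log2 of the array's processed signal minus the log2 of that array's 75th percentile, so that 0 is the signal at that percentile and 1 unit is a doubling. A level of one gene is not set against that of another, since probes differ in brightness. Differences were fitted in limma to all 27 arrays, and a gene counts as called when its difference is 2-fold or more and its adjusted p (Benjamini-Hochberg) is below 0.05. Tested genes are those with a probe well above background on every array of one or both groups compared. Fewer cells of a type and less RNA per cell cannot be told apart in bulk samples.

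The 75th percentile of the signal ran from 78.8 (HE2 replicate 1) to 732, and 46.8 to 89.6% of probes were well above background, with SM replicate 2 at the top. Hprt, the host locus of the cassette, read higher on every DOX array than on every untreated array of the same population, as in HP cells (2.79 and 3.27 without DOX, 4.83 and 5.57 with DOX), and was called in SM cells (adjusted p = 0.0262, limma). Kit was at 3.08 to 5.23 on the arrays sorted as KIT+ and at -1.59 to 0.65 on the SM arrays. Itga2b, which encodes CD41, went against the gate on HE2 DOX replicate 2 (-0.16) and HP DOX replicate 1 (0.30), both below the untreated HE1 arrays (0.69 and 1.16). Tek, which encodes TIE2, was also low on that HE2 array (-0.96), below HP replicate 1 (0.41), sorted as TIE2-. HE1 DOX replicate 2, sorted as TIE2+, was at 0.02 for Tek. The number of genes lower and called and the median are therefore also given without each of these 3 arrays. For HE1, HE2 and HP, with or without DOX, replicates numbered 1 shared one slide and those numbered 2 another.

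To show what the control regions of these genes look like, promoter windows of 300 bases, 250 before and 50 after the start, were read from RefSeq (GRCm38.p6). Windows were found for 29 of the 40 genes (32 windows, since 3 genes had 2). No window was used for Cd14, Cd52, Ncf4, C1qa, Msr1, Adgre1, Alox5ap, Tlr4, Tlr7, Cd86 and Rac2. Both strands were searched for AP-1 (TGANTCA), the PU.1 core (GAGGAA), C/EBP (TTNCNNAA) and RUNX (TGTGGT or TGCGGT), and overlaps between different words were allowed. The PU.1 core was in 19 of 32 windows (59.4%) against 28.3% of all 32851 promoters. The AP-1 word was in 1 window (3.12%, Cybb) against 7.81%. C/EBP words were in 13 windows (40.6% against 40.7%) and RUNX words in 7 (21.9% against 22.4%). These are matches of letters, not binding sites. The stretches shown come from genes named in the results. Capitals mark GAGGAA or its complement TTCCTC, and in Cybb the AP-1 word. Slc2a6, the member called with DOX in HP cells, is shown with the 250 bases before its start, which hold none of the 4 words and so no capitals.
Mpo, chr11:87793534-87793553, plus strand: taaGAGGAAggggctgtgga
Mpo, chr11:87793549-87793576, plus strand: gtggagagagaGAGGAAgttgcctttgt
Prtn3, chr10:79879561-79879588, plus strand: caaactggaagGAGGAAgtgggacccac
Cd33, chr7:43533381-43533408, minus strand: cagtggaatggGAGGAAgccacaaagaa
Cd53, chr3:106790172-106790199, minus strand: gcaagttcactGAGGAAcagttgactat
Cybb, chrX:9469446-9469474, minus strand: ttacttgtgacTGAATCAcaagatctttt
Slc11a1, chr1:74375040-74375067, plus strand: ggtatccaggaGAGGAAcgaaggtcaaa
Slc2a6, chr2:27027999-27028248, minus strand: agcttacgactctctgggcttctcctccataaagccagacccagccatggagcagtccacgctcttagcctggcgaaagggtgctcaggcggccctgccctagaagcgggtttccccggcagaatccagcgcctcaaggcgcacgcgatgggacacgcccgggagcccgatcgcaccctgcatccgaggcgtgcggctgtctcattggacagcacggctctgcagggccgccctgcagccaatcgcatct
Hpgd, chr8:56294311-56294338, plus strand: cctttcagcttTTCCTCtcttagctcac
Vav1, chr17:57279078-57279099, plus strand: cagtcacagaaGAGGAAgtggt
Plek, chr11:17008763-17008790, minus strand: cagatatctagTTCCTCtttctgactcg

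Most of the 40 genes were dim in mesoderm and brightest in the blood branch. Of untreated groups, HP cells had 37 genes above background on all arrays, HE2 cells 31, HE1 cells 28 and SM cells 25, and the cultures had 21 (d1 BC) and 19 (FLK1+ 5h), against 12 for FLK1+ cells. Of all genes, 65.2% were above background throughout HP cells, 56.6 to 58.9% in the other groups and 51.9% in FLK1+ cells. C1qa, Cybb and Msr1 were above background on all arrays of no group and are not placed. The highest untreated mean lay in HP cells for 25 genes. It lay in HE2 for Ctsg, Laptm5, Lcp2 and Lyz2, and in HE1 for Aif1, C1qb, Elane, Mrc1 and Tlr4. Cyba was highest in d1 BC, Slc11a1 in FLK1+ 5h and Tlr7 in FLK1+ cells. These places are a description, and neighbouring groups often overlapped, as for Lyz2, with -2.03 and -0.08 in HE2 and -0.38 and -1.77 in HP cells.

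**Figure D1:**
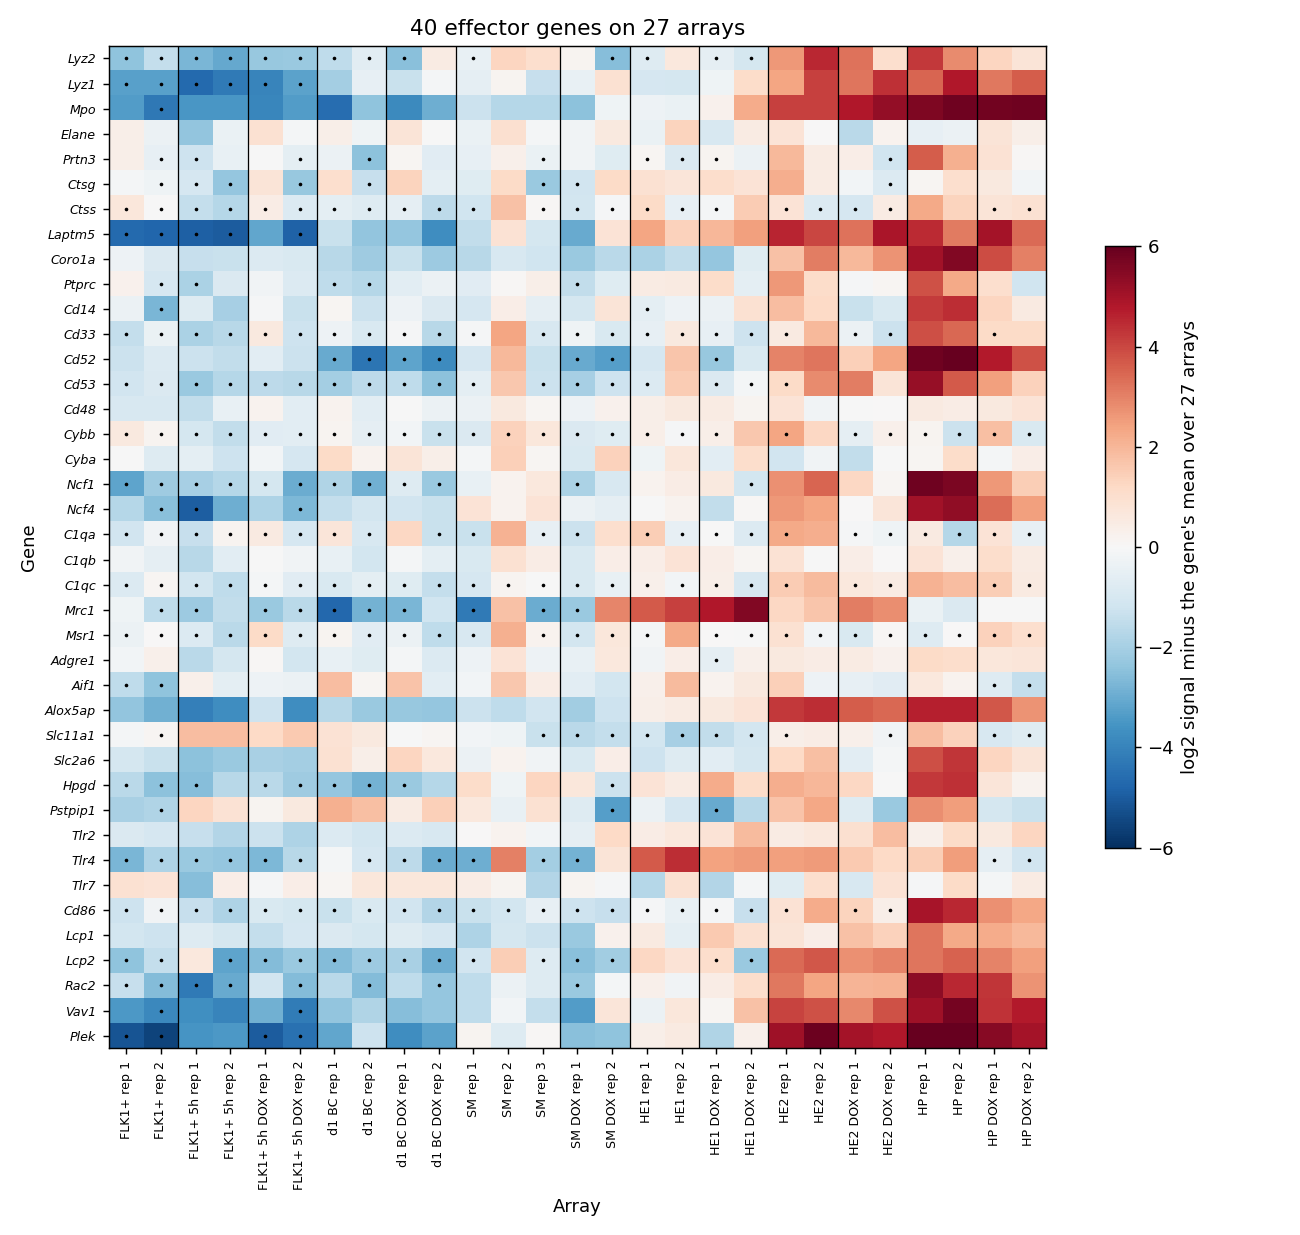
Heat map of the 40 genes (rows) on the 27 arrays (columns, grouped by population and treatment). Colour is the log2 signal minus the gene's own mean over all arrays, and a black dot marks a spot not well above background. HP cells are the group with the most genes without a dot, 37 of 40 on both untreated arrays.

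Part of the set was called already at the step from HE1 to HE2, where 7 of 31 tested genes rose (Plek, Mpo, Lyz1, Coro1a, Alox5ap, Vav1 and Slc2a6) against 0.542% of all genes called higher, and 0 fell against 1.78% called lower. The median difference of the 31 was 1.98, against 0.06 over all genes tested, and 0.49 against -0.12 with normexp background correction. Among the 28 above background on all arrays of both groups the same 7 rose (0.542% of all genes tested, without this filter), with a median of 1.92. Plek, encoding pleckstrin, an adaptor for phosphoinositide signals, was at 0.00 and 0.18 in HE1 and at 4.72 and 5.55 in HE2 cells (5.05 ± 0.66 SE, adjusted p = 0.000534, limma). Mpo, encoding myeloperoxidase, was at 0.17 and 0.09 in HE1 and at 4.61 and 4.60 in HE2 cells (4.48 ± 0.75, adjusted p = 0.00291). For both genes the HE2 arrays lay far above the HE1 arrays, with no overlap. Lyz1 differed by 4.27, Coro1a by 4.13, Alox5ap by 3.90, Vav1 by 3.75 and Slc2a6 by 2.51 on the log2 scale. Within slides, 28 of 31 tested genes were higher in HE2 on the replicate 1 slide and 22 on the replicate 2 slide, with medians of 2.09 and 1.51. With slide as a block 11 were called (5.64% of all genes), and with slide as a random block 13 (5.67%). The median was 2.32 without HE2 replicate 2 (0.08 over all genes) and 1.59 without HE1 replicate 1 (-0.26 over all genes).

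From HE2 to HP none of 37 tested genes was called in either direction, where 0.00395% of all genes were called higher and 0% lower. The median difference was 1.21, against 0.04 over all genes tested (0.68 against -0.05 with normexp), and 22 genes were higher on both HP arrays than on both HE2 arrays, as were 15% of all genes. Among the 31 above background on all arrays of both groups the median was 0.92. Before adjustment, at p under 0.05, 15 members were at least 2-fold higher, against 2.56% of all genes, and 0 lower. Cd86, a costimulatory ligand for T cells, was at -5.17, in the background, and -3.79 in HE2 and at -1.08 and -1.51 in HP cells (adjusted p = 0.105, limma). Among members above background on all 4 arrays, Coro1a had the largest difference (2.85, adjusted p = 0.186). With normexp background correction 7 members were called (0.209% of all genes), and with slide as a block 1 (0.0908%).

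Across both stages, from HE1 to HP, 20 of 37 tested genes rose against 1.7% of all genes, and 0 fell against 2.59%. The median was 3.25, against 0.01 over all genes tested. With normexp it was 0.96 against -0.26, with 16 members called. Among the 28 above background on all arrays of both groups 14 rose (1.23% of all such genes), with a median of 2.64. Coro1a, encoding coronin 1A, an actin regulator of leukocytes, was at -1.87 and -1.46 in HE1 and at 5.05 and 5.56 in HP cells. That is a 126-fold rise (6.97 ± 0.59, adjusted p = 2.24e-06, limma), with HE2 arrays in between at 1.80 and 3.12. Plek rose by 6.20 and Mpo, which reached 6.07 and 6.34 in HP cells, by 6.08. Cd52, a small GPI-anchored glycoprotein of leukocytes, was at -3.02 and -0.36 in HE1 and at 3.83 and 3.95 in HP cells, a rise of 5.58. Ncf1, the oxidase organiser p47phox, rose by 5.41 (42.5-fold), Vav1, a guanine nucleotide exchange factor of blood cells, by 5.23, Lyz1 by 5.20 and Ncf4, the oxidase subunit p40phox, by 5.10. Slc2a6, Rac2, Cd14, Alox5ap, Cd53, Hpgd, Pstpip1 and Lcp1 were also called, with values between 2.75 (Lcp1) and 5.07 (Slc2a6). Of these, Cd14 and Cd53 were in the background on HE1 replicate 1. Cd86, Prtn3, Cd33 and Slc11a1 were not well above background on any HE1 array, so their rises are bounds: at least 6.23-fold, 7.11-fold, 4.41-fold and 2.27-fold. A bound sets the bright group's mean against the lowest signal well above background on each array of the other group, or the probe's own signal where that is higher.

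A few macrophage genes read lower in HP than in HE1 cells or overlapped. Mrc1, the mannose receptor, which sinusoidal endothelium also carries, was at 0.88 and 1.30 in HE1, at -1.55 and -1.13 in HE2 and at -3.21 and -3.66 in HP cells. Its difference from HE1 to HP was -4.52 (adjusted p = 0.109, limma), and the arrays of the 3 stages did not overlap. Tlr4, the receptor for bacterial lipopolysaccharide, was at -0.39 and 0.35 in HE1 and at -2.61 and -1.58 in HP cells (-2.08, adjusted p = 0.572). The 10 endothelial markers on the list had a mean level of 1.35 to 1.64 on HP arrays and 3.80 to 4.13 on HE1 arrays, and 2 of 10 were called lower from HE1 to HP; their part in these 2 genes was not tested. Elane, Ctsg, Aif1, Cd48, Cyba, C1qb, Tlr2 and Tlr7 overlapped between HE1 and HP cells. Adgre1, Ctss, C1qc, Laptm5, Lcp2, Lyz2 and Ptprc were higher on both HP arrays without passing the adjusted test. Within slides, 32 of 37 tested genes were higher in HP than in HE1 on the replicate 1 slide and 31 on the replicate 2 slide, with medians of 3.34 and 2.85. Leaving out 1 array at a time gave 15 to 18 called genes.

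Against SM cells, sorted as smooth muscle, 24 of 37 tested genes were higher in HP cells where 3.19% of all genes were, and 0 were lower where 6.21% were. The median was 3.21, and 1.86 with normexp. Among the 25 above background on all arrays of both groups 17 were called (3.19% of all genes tested, without this filter), with a median of 4.19. The count was 24 without SM replicate 2 and 15 without HP replicate 1. The 20 genes called against HE1 were joined by Laptm5, Ptprc, Lcp2 and C1qc. By fitted value the first 8 were Mpo (7.27), Plek (6.82), Coro1a (6.55), Vav1 (6.45), Cd52 (6.03), Alox5ap (6.00), Rac2 (5.83) and Cd86. Cd86 was above background on 0 of 3 SM arrays, so that it has no settled rank and only a bound, at least 10.9-fold. Ncf1, above background on all arrays of both groups, came next at 5.60. SM replicate 2 read higher than the other SM arrays for many dim genes, such as Tlr4 (-1.04 against -7.00 and -6.14) and Mrc1 (-1.02 against -7.02 and -5.78). Endothelial markers stood out on the same array, such as Cdh5, encoding VE-cadherin (4.16 against -1.33 and -0.61), and Esam (3.01 against -2.18 and -2.79), and on SM DOX replicate 2 they were at 4.53 and 3.26. The 10 endothelial markers had a mean level of -1.09 to 2.11 on SM arrays. The SM arrays also carried blood transcripts, with the embryonic globin Hbb-y at 6.86, 2.74 and 5.74 against 2.20 and 2.75 in HP cells and a mean level of the 12 erythroid markers of 0.33 to 2.52 against 0.93 to 0.94. The 9 smooth muscle markers had a mean level of 3.75 to 3.85 on SM arrays and -0.27 to 1.09 on HP arrays. The part of the erythroid and endothelial signal in these differences was not tested.

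With DOX, HP cells read lower for most of the effector genes, by amounts that mostly missed the threshold across all genes. Of 37 tested genes 30 were lower, where 29.9% of all genes were, 26 were lower on both DOX arrays than on both untreated arrays, and 1, Slc2a6, fell by the adjusted test. Over all 25096 genes tested, 11.8% lay lower on both DOX arrays, 28.1% lay higher on both, 0.0319% were called in either direction and 0.0279% were called lower. Of the 37, 6 (Aif1, C1qc, Cd33, Ctss, Slc11a1 and Tlr4) were tested only because they were above background without DOX, and all 6 were lower. Among the 31 above background on all arrays of both groups, 24 were lower, 20 of them on both DOX arrays (11.1% of all such genes), with a median of -1.41 (0.30 over all such genes). The median difference of the 37 was -1.44, between -3.86 (Pstpip1) and 1.00 (Elane), against 0.29 over all genes tested. With quantile normalization the median of all genes was 0.10 and that of the 37 was -1.64. With normexp they were 0.23 and -0.87, and with the authors' processed values 0.08 and -1.26. Of the 37, 20 were at least 2-fold lower with no overlap, against 6.2% of all genes. At an unadjusted p under 0.05, 17 members were at least 2-fold lower, against 2.25% of all genes, and 0 higher. On simulated data of this comparison, the fit recovered 9% of genes changed by 2 log2 units and 68.7% of those changed by 4. Without HP DOX replicate 1, whose Itga2b was low for its gate, 32 of 37 were lower (30.1% of all genes), the median was -1.88 and 0 members were called; leaving out any other HP array also left 0.

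**Figure D2:**
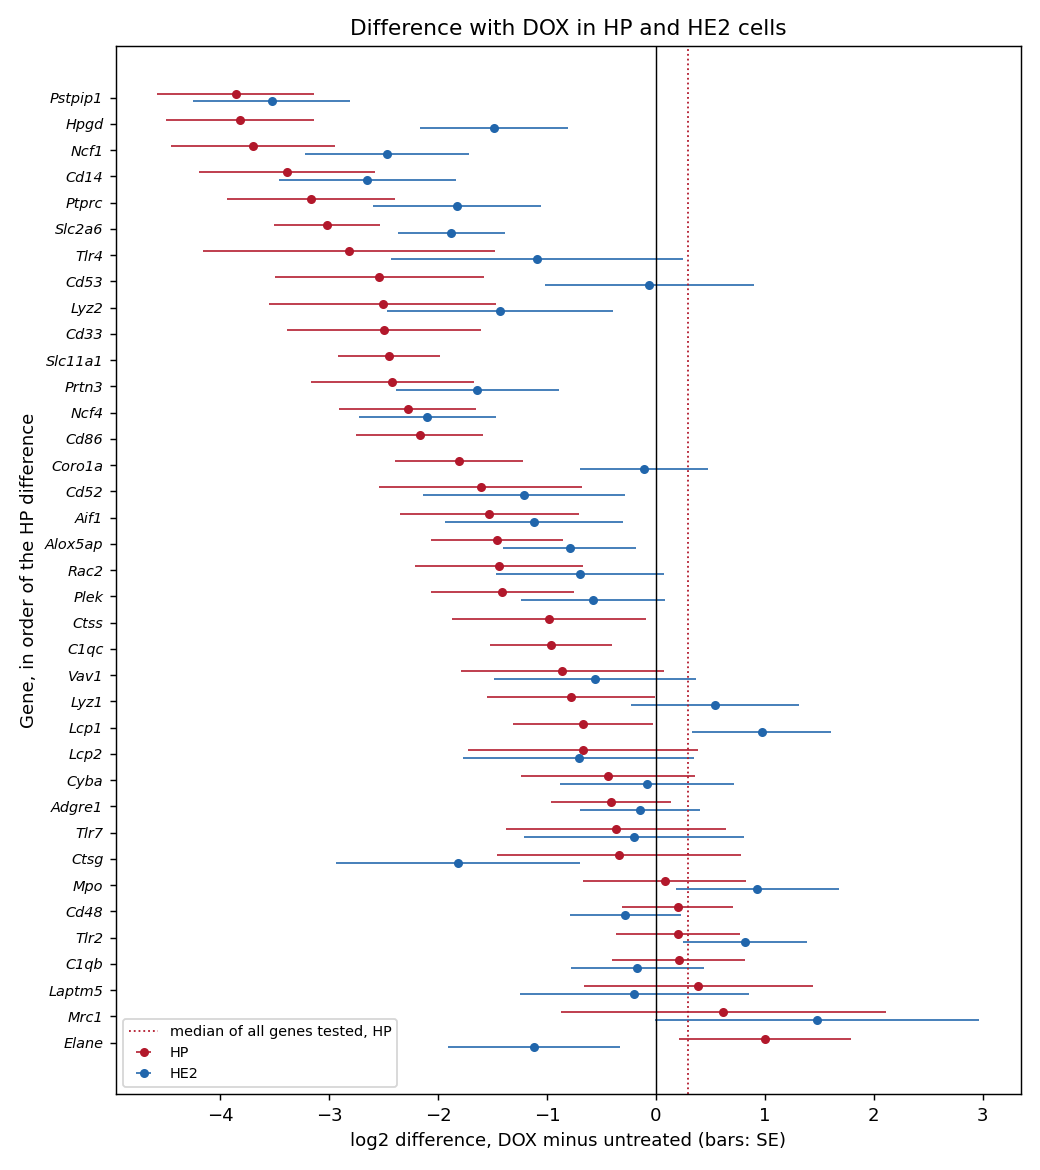
Difference with DOX (log2, DOX minus untreated, bars show the standard error) of the genes tested in HP cells (red) and, where tested, in HE2 cells (blue), in order of the HP difference. In HP cells 30 of 37 points lie left of 0, from -3.86 for Pstpip1 to 1.00 for Elane, while the dotted line, the median of all genes tested in HP cells, is at 0.29.

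The transport and lipid genes held the called member. Slc2a6, a sugar transporter of the GLUT family found in lysosomal membranes of macrophages, was at 2.36 and 2.79 in untreated HP cells and at -0.18 and -0.71 with DOX. It fell 8.1-fold (-3.02 ± 0.49 SE, adjusted p = 0.0298, limma), by 2.54 on the replicate 1 slide and by 3.50 on the replicate 2 slide. Its DOX arrays lay below the untreated HP arrays and near the HE2 arrays (-0.28 and 0.32). The adjusted p (limma) was 0.0217 with slide as a block and 0.0535, no longer called, with a replicate block. That block took out a shift per replicate number common to all groups, and did not pair the HP arrays. Without HP DOX replicate 1 the difference was -3.28. Hpgd, which breaks down prostaglandins, was at 0.73 and 0.86 without DOX and at -2.77 and -3.29 with DOX. Its difference of -3.82 ± 0.68 (14.1-fold) had an adjusted p of 0.0601, or 0.0499 when each array was scaled by the percentile over averaged probes. Alox5ap, which hands arachidonic acid to 5-lipoxygenase, was at 5.89 on both untreated arrays and at 4.92 and 3.93 with DOX, a difference of -1.46 (adjusted p = 0.988). All 3 genes of this group were thus lower on both DOX arrays, and 1 passed the test.

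In the phagocyte oxidase, values were lower for the cytosolic subunits and overlapped for Cyba, the one gene of the membrane core that was above background. Ncf1 was at 1.96 and 1.78 without DOX and at -1.27 and -2.40 with DOX (-3.70 ± 0.75, adjusted p = 0.13, limma). It was called with slide as a block (adjusted p = 0.0261). Ncf4 was at 3.12 and 3.40 without DOX and at 1.40 and 0.55 with DOX (-2.28, adjusted p = 0.478). Rac2 was at 3.39 and 2.57 without DOX and at 2.33 and 0.75 with DOX (-1.44, adjusted p = 0.988). The 3 cytosolic partners therefore lay lower on both DOX arrays, Rac2 by a narrow gap. Cyba, the p22phox chain, was at 4.36 and 5.35 without DOX and at 4.15 and 4.68 with DOX, and its arrays overlapped. Cybb, the catalytic gp91phox chain, was not well above background on any HP array (-6.08 and -7.55 without DOX, -4.43 and -7.18 with DOX) and was seen above it only on HE2 replicate 2 and HE1 DOX replicate 2.

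Among granule enzymes the genes did not move alike. Lyz2, lysozyme M, was at -0.38 and -1.77 without DOX and at -3.32 and -3.85 with DOX (-2.51 ± 1.04, adjusted p = 0.988). Lyz1, lysozyme P, was at 0.95 and 2.28 without DOX and at 0.60 and 1.07 with DOX, and its arrays overlapped. The 2 lysozyme genes are close paralogs, so their probes may share signal. Prtn3, proteinase 3, was at -0.35 and -1.86 without DOX and at -3.13 and -3.92 with DOX (-2.42, adjusted p = 0.676). Mpo overlapped, at 6.07 and 6.34 without DOX and at 6.26 and 6.31 with DOX (0.08 ± 0.75, adjusted p = 0.993). Elane, neutrophil elastase, was at -0.30 and -0.14 without DOX and at 1.00 and 0.55 with DOX (1.00, adjusted p = 0.988). The arrays thus gave lower values for 1 lysozyme and 1 serine protease, and higher values for another protease of the same neutrophil granules. Elane, however, read no lower in FLK1+ cells (0.54 and -0.14) than in untreated HP cells. Its values in HP DOX cells lay between those of the untreated HE1 arrays (-0.17 and 1.54). Of all genes tested in HP cells, 28.1% lay higher on both DOX arrays. Ctsg, cathepsin G, overlapped, and Ctss, cathepsin S, was at least 1.55-fold lower, above background on the untreated arrays and on neither DOX array.

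Macrophage surface genes and innate receptors were lower in part. Cd14, the co-receptor for lipopolysaccharide, was at 1.27 and 1.51 without DOX and at -1.63 and -2.38 with DOX (-3.39 ± 0.81, adjusted p = 0.288, limma). Slc11a1, a metal transporter of the phagosome, was at -2.52 and -2.99 without DOX and at -5.32 and -5.09 with DOX, where it was not well above background. It was at least 3.74-fold lower (adjusted p = 0.086). Tlr4 was at -2.61 and -1.58 without DOX and at -4.60 and -5.22, again in the background, with DOX, at least 5.97-fold lower (adjusted p = 0.988). Cd14 and Tlr4 encode parts of one sensing complex, and both lay lower on both DOX arrays. Aif1, an actin-binding protein of macrophages, was at -3.15 and -3.58 without DOX and at -4.54 and -5.24 with DOX, at least 2.47-fold lower. Cd86 was at -1.08 and -1.51 without DOX and at -3.26 and -3.68 with DOX (-2.17, adjusted p = 0.407). Adgre1, which encodes an adhesion receptor widely used as a macrophage marker, was lower on both DOX arrays by 0.41. Mrc1 was higher on both by 0.62, Tlr2 and Tlr7 overlapped, and Msr1, a scavenger receptor, was not above background on any HP array.

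Of the C1q chains, 1 was above background throughout. C1qa was not well above background on any HP array (-5.36 and -7.59 without DOX, -5.07 and -6.38 with DOX). C1qb was above background on all 27 arrays, at -1.23 and -1.76 without DOX and at -1.01 and -1.55 with DOX in HP cells. C1qc was at -4.06 and -4.27 without DOX and at -4.67 and -5.59, in the background, with DOX, at least 1.42-fold lower (adjusted p = 0.988). The 3 chains form one protein in mature macrophages. With C1qa in the background throughout and C1qc with DOX, whether they ran together cannot be read from HP cells.

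Pan-leukocyte surface genes were lower with DOX for 4 of 6. Ptprc, encoding the phosphatase CD45, was at 0.31 and -1.25 without DOX and at -2.53 and -4.74 with DOX (-3.17 ± 0.77, adjusted p = 0.312, limma). Cd53, a tetraspanin, was at 0.09 and -1.48 without DOX and at -2.68 and -3.79 with DOX (-2.54). Cd33, a sialic acid-binding lectin, was at -1.57 and -2.02 without DOX and at -4.29 on both DOX arrays (-2.50), 1 of them above background. These 3 genes, and Cd52, had no overlap between treated and untreated arrays. Cd52 was at 3.83 and 3.95 without DOX and at 2.75 and 1.81 with DOX (-1.61). Cd48 was higher on both DOX arrays by 0.20, and Laptm5, a lysosomal protein of leukocytes, overlapped at 3.76 and 2.43 without DOX and at 4.29 and 2.69 with DOX.

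All 6 signalling and cytoskeleton genes lay lower on both DOX arrays. Pstpip1, an adaptor that links phosphatases to actin, was at 0.61 and 0.31 without DOX and at -3.26 and -3.55 with DOX (-3.86 ± 0.72, 14.5-fold, adjusted p = 0.0794, limma). Coro1a was at 5.05 and 5.56 without DOX and at 3.94 and 3.05 with DOX (-1.81, adjusted p = 0.78). Plek was at 6.01 and 6.57 without DOX and at 5.13 and 4.63 with DOX (-1.41, adjusted p = 0.988). Vav1, Lcp1 (L-plastin) and Lcp2 (the adaptor SLP-76) were lower by less than 2-fold, with differences of -0.86, -0.67 and -0.67. Over the 37 tested genes, 29 were lower on the replicate 1 slide (median -1.06) and 31 on the replicate 2 slide (median -1.83), against 30.8 and 34.0% of all genes. With slide as a block 3 members were called (Slc2a6, Hpgd and Ncf1), against 0.0916% of all genes. With slide as a random block 7 were (also Cd14, Pstpip1, Ptprc and Slc11a1), against 0.203%.

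**Figure D3:**
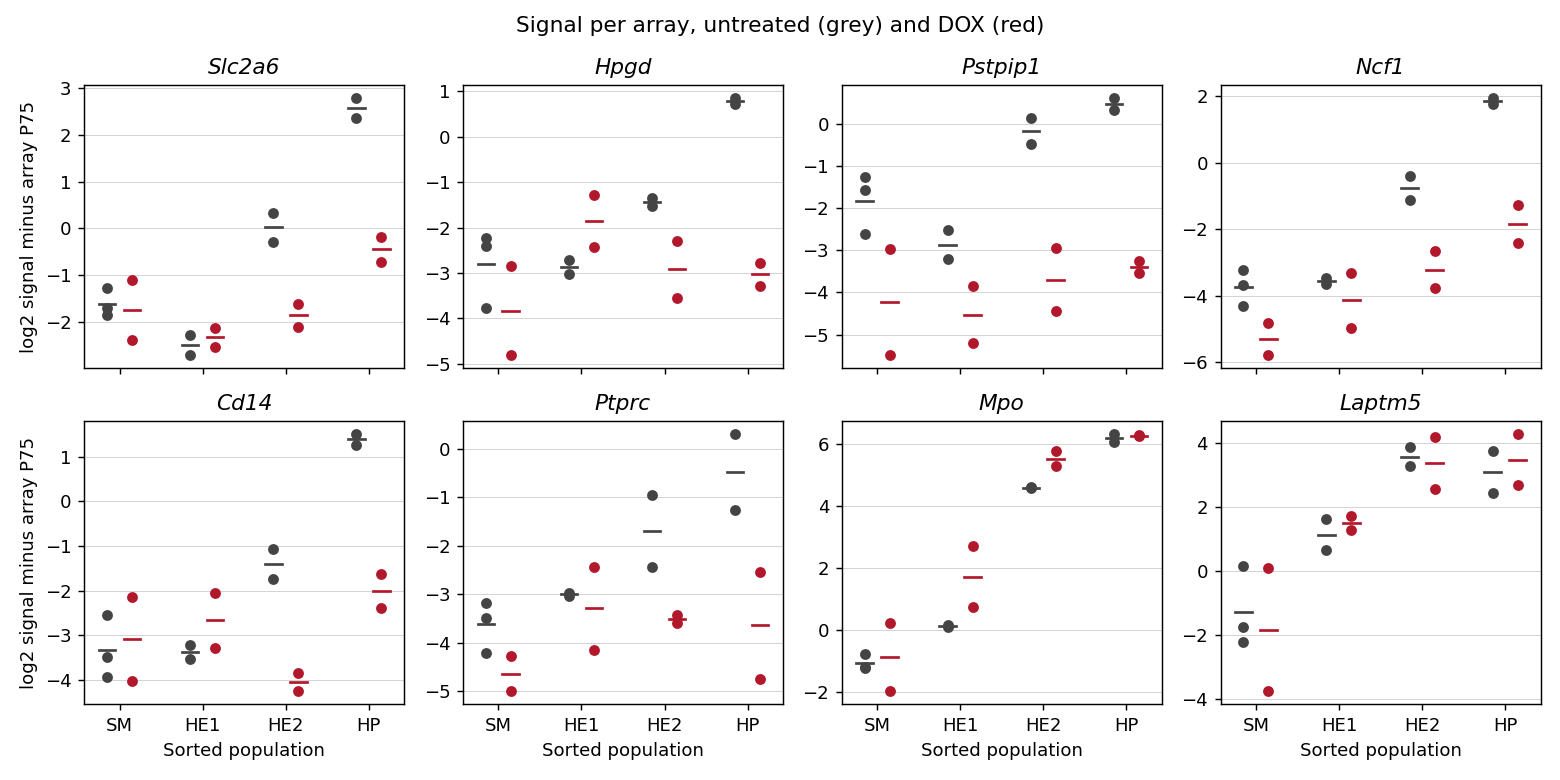
Log2 signal minus the array's 75th percentile of 8 genes in the sorted populations, 1 point per array, untreated in grey and DOX in red, with a line at each mean. Slc2a6, Hpgd, Pstpip1, Ncf1, Cd14 and Ptprc lie lower on both red HP arrays than on both grey ones, whereas Mpo (6.07 and 6.34 against 6.26 and 6.31) and Laptm5 overlap.

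In HE2 cells DOX was followed by lower values for part of the set, and none was called. Of 32 tested genes 27 were lower, where 46% of all genes were. On both DOX arrays 16 were lower and 4 higher, against 15.4% and 18.8% of all genes. Among the 29 above background on all arrays of both groups 24 were lower, with a median of -0.70. On both DOX arrays 14 of them were lower (15.4% of all genes tested, without this filter). The 32 had a median of -0.71, against 0.11 over all genes tested, or -0.39 against 0.04 with normexp. None (0) were called, as were 0% of all genes. At an unadjusted p under 0.05, 8 members were at least 2-fold lower, against 3.96% of all genes, and 0 higher. At least 2-fold lower without overlap were 12 members, where 11.2% of all genes were. Pstpip1 was at -0.49 and 0.14 without DOX and at -2.96 and -4.44 with DOX (-3.53 ± 0.72, adjusted p = 0.541, limma). Cd14 was at -1.06 and -1.73 without DOX and at -4.25 and -3.85 with DOX (-2.65). Ncf1 (-2.47), Ncf4 (-2.10), Slc2a6 (-1.88) and Ptprc (-1.83) were also lower on both DOX arrays, as in HP cells. Mpo (0.93), Lcp1 (0.97), Tlr2 (0.82) and Mrc1 (1.48) were higher on both. Within slides 24 of 32 were lower on the replicate 1 slide and 21 on the replicate 2 slide, with medians of -0.84 and -0.57. Without HE2 DOX replicate 2, whose Itga2b and Tek were low for its gate, 27 of 33 were lower (52.4% of all genes), the median was -0.82 and 0 were called.

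In the whole cultures and in HE1 and SM cells none of the members was called with DOX. In HE1 cells 15 of 29 tested genes were lower with DOX (43.6% of all genes), 3 of them on both arrays (8.17%). On both arrays 8 were higher (9.01% of all genes), and 0 were called (0%). There Mpo was at 0.75 and 2.70 with DOX against 0.17 and 0.09 without (1.60, adjusted p = 1, limma). Without HE1 DOX replicate 2, 13 of 29 were lower, the median was 0.03 and 0 were called. In SM cells 18 of 26 were lower (44.4% of all genes), 7 of them on every array (6.06%), and 0 were called (0.00841%). Among the 19 above background on all SM arrays with and without DOX, 11 were lower, with a median of -0.14. On every array 3 of them were lower (6.06% of all genes tested, without this filter). Cd52 was at -5.05 and -5.33 with DOX, in the background, and at -3.02, -0.05 and -3.34 without, at least 7.34-fold lower (adjusted p = 0.768), or at least 3.56-fold without SM replicate 2. Plek, above background on all 5 SM arrays, differed by -2.27 (adjusted p = 0.664). In d1 BC 9 of 24 were lower (37% of all genes), 4 on both arrays (9.62%), and 0 were called (0%). In FLK1+ 5h 6 of 20 were lower (49.3% of all genes), 3 on both arrays (15.2%), and 0 were called (0%). At least 2-fold and without overlap, 3 were higher and 1 lower there, as were 2618 and 249 of 23747 genes. Medians were -0.01 in HE1, -0.29 in SM, 0.08 in d1 BC and 0.40 in FLK1+ 5h, against 0.09, 0.08, 0.13 and 0.01 over all genes tested. FLK1+ 5h replicate 1 and FLK1+ 5h DOX replicate 1 were on different slides and scan days. The FLK1+ 5h median was 0.13 with slide and -0.01 with scan day as a fixed block. Without adjustment, at p under 0.05 and a 2-fold difference, HE1 had 1 lower and 1 higher member (0.613% and 0.509% of all genes), SM had 4 lower (1.9%), d1 BC had 0 and FLK1+ 5h had 2 higher (5.03%).

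Pstpip1 and Plek, chosen here after their values were seen, were the members with every DOX array below every untreated array in all 6 comparisons, of 18 members tested in all. Over all genes, 14 of 20070 (0.0698%) showed that. For Pstpip1 the whole cultures differed by -0.70 (FLK1+ 5h) and -1.02 (d1 BC), and the sorted SM, HE1, HE2 and HP cells by -2.41, -1.65, -3.53 and -3.86. On SM DOX and on HE1 DOX 1 array each was in the background for Pstpip1. Plek was in the background on both FLK1+ 5h DOX arrays, at least 1.88-fold lower, and differed by -1.27 in d1 BC, and by -2.27, -1.18, -0.58 and -1.41 in the sorted cells in the same order. None of these 12 differences passed the adjusted test. Without HP DOX replicate 1 the HP differences were -4.01 and -1.66, and without HE2 DOX replicate 2 the HE2 differences were -2.79 and -0.47, for Pstpip1 and Plek. Hpgd was not of one direction, with 1.02 for HE1, -1.49 for HE2 and -3.82 for HP cells. Whether the DOX difference itself differed between sorted populations was tested for each of 6 pairs of populations, and 0 members and 0 genes passed. The smallest adjusted p of a member was 0.934, in HP against HE2 (limma). Without HP DOX replicate 1 or HE2 DOX replicate 2 also 0 members and 0 genes passed.

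The step from HE1 to HP was also present with DOX. Of 33 tested genes 10 rose (Plek, Cd52, Coro1a, Mpo, Ncf4, Vav1, Cd86, Lyz1, Alox5ap and Slc2a6) against 0.97% of all genes, and 0 fell against 2.1%. All 10 were among the 20 called without DOX. This step shares its HP DOX arrays with the DOX comparison in HP cells. The median of the 33 was 1.13 against 0.26 over all genes tested, and 0.39 against 0.06 with normexp. Among the 22 above background on all arrays of both groups 8 rose (0.97% of all genes tested, without this filter), and their median difference over the 22 was 0.97. Plek was at -2.16 and -0.03 in HE1 DOX and at 5.13 and 4.63 in HP DOX cells (5.97, adjusted p = 0.000154, limma). Cd52, in the background on 1 HE1 DOX array, differed by 5.88, Coro1a by 4.99, Mpo by 4.56, Ncf4 by 3.61, Vav1 by 3.60 and Lyz1 by 2.96, and Cd86 was at least 1.98-fold higher. Cd14 differed by 0.66, Ptprc by -0.34 and Hpgd by -1.18, where without DOX the values were 4.77, 2.53 and 3.66. Without DOX, Cd14 was in the background on HE1 replicate 1. Without HP DOX replicate 1 there were 4 called genes (27 of 34 higher, median 1.30), without HE1 DOX replicate 2 there were 5 (27 of 33 higher, median 1.56), and without either of the other arrays 6. Within slides, 26 of 33 were higher on the replicate 1 slide and 23 on the replicate 2 slide.

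**Figure D4:**
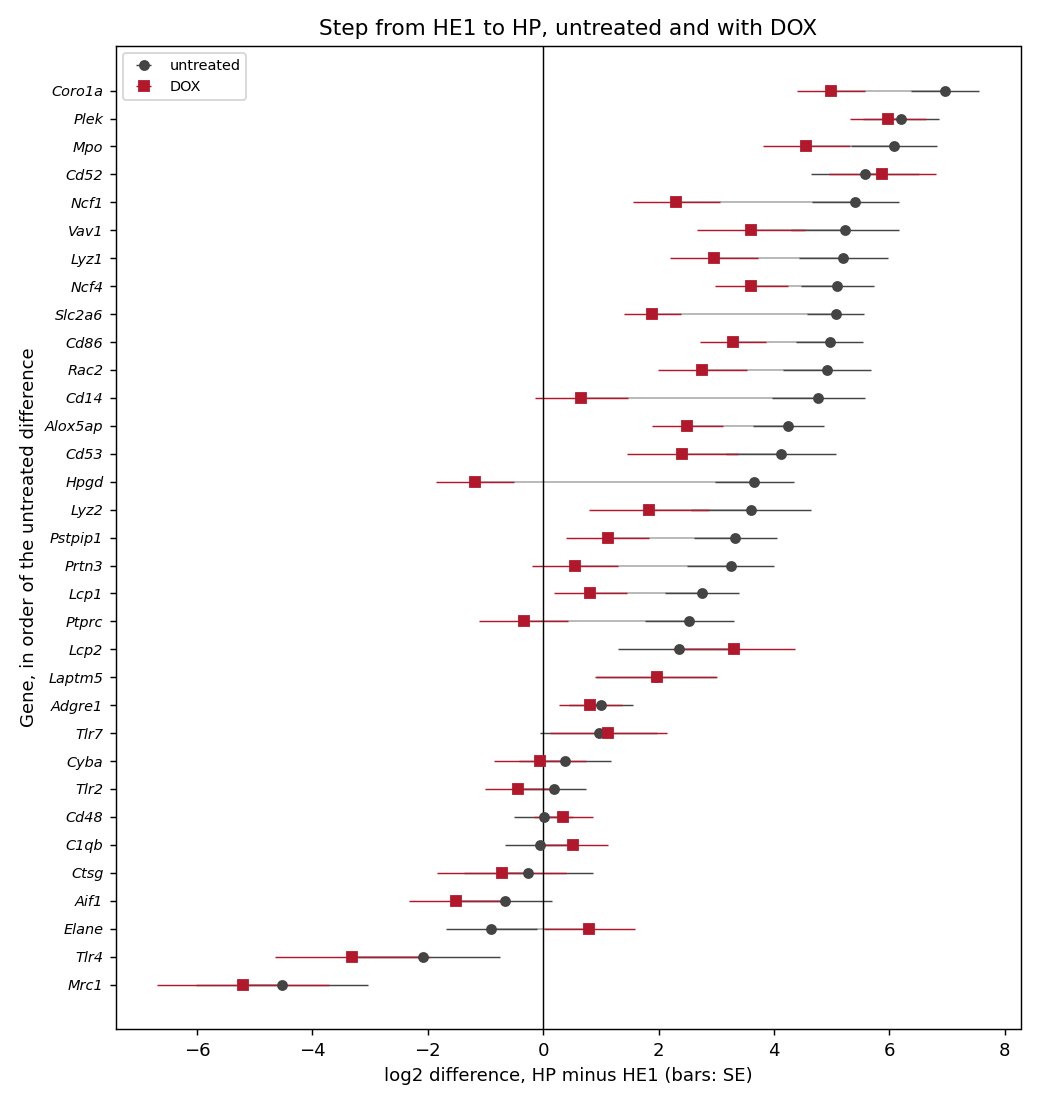
Difference from HE1 to HP (log2, HP minus HE1, bars show the standard error) of the genes tested both without DOX (grey circles) and with DOX (red squares), in order of the untreated value. Coro1a, Plek, Mpo and Cd52 lie above 4 in both, whereas Hpgd lies at 3.66 without DOX and at -1.18 with DOX.

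Other genes of the same pathways were followed as lists. In HP cells, 10 of 12 tested phagocyte receptors from a list of 17 were lower with DOX, 9 of them on both arrays (11.8% of all genes), with a median of -1.50. Of the 12, 3 (Fcgr2b, Itgax and Trem2) were above background only without DOX, and over the other 9 the count was 7, 6 of them on both arrays, with a median of -1.32. Cx3cr1, the fractalkine receptor, was at 1.62 and 2.26 without DOX and at -1.47 and -2.05 with DOX (-3.70), and Csf1r, the M-CSF receptor, was at 2.81 and 3.57 without DOX and at 1.71 and 1.79 with DOX (-1.44). Itgam, the CD11b chain, ran the other way, at 3.52 and 3.00 without DOX and at 5.64 and 3.94 with DOX. Of 16 leukocyte signalling genes, all tested, 14 were lower and 10 of these on both arrays (11.8% of all genes), with a median of -0.94. Over the 15 above background on all HP arrays, 13 were lower, with a median of -0.93. Of 8 tested granule genes 4 were lower (median -0.01), of 8 Toll-like receptor genes 4 (median -0.36) and of 9 lysosomal proteases 6 (median -0.15). Among the Toll-like receptor genes, Cd180 was above background in HP cells only without DOX. None of these 5 lists held a called gene with DOX in HP cells. Without HP DOX replicate 1 10 of 12 receptors and 14 of 16 signalling genes were lower, and the medians were -1.58 for the receptors, -1.16 for the signalling genes, 0.14 for the granule genes and -0.06 for the Toll-like receptor genes, and that of the proteases turned to 0.42. From HE1 to HP, where 1.7% of all genes were called higher and 2.59% lower, called higher were 5 of 12 tested receptors (Fcgr2b, Fcgr3, Fcer1g, Cx3cr1 and Tyrobp), 9 of 16 signalling genes, 3 of 8 granule genes, 2 of 8 Toll-like receptor genes and 1 of 9 proteases (Ctsc), and 1 protease, Ctsh, was called lower. Fcgr2b and Fcgr3 were above background on no HE1 array and Cx3cr1 on 1. These 3 were tested only through HP cells, where they were high. Of the 16 signalling genes, 9 were above background on all HE1 arrays.

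Markers of other cell types were read against the shift of all genes in HP cells, of which 29.9% were lower with DOX, 28.1% were higher on both DOX arrays, and the median was 0.29. Of 11 tested erythroid markers 10 were higher, 4 of them on both arrays, with a median of 0.69, and the mean level of the 12 on the list was 0.93 to 0.94 on HP arrays and 1.33 to 1.93 on HP DOX arrays. Gata1, the erythroid and megakaryocyte factor, was at 3.40 and 3.66 without DOX and at 4.20 and 4.53 with DOX. Megakaryocyte markers were higher for 5 of 7 (median 0.36), mast cell and basophil markers for 3 of 4 (median 0.58) and lymphoid markers for 7 of 7 (median 0.41). Endothelial markers had a median of 0.39, smooth muscle markers of 0.05 and fibroblast feeder markers of -0.34. None of these lists held a called gene. Without HP DOX replicate 1, where the median of all genes was 0.37, 8 of 11 erythroid markers were higher with a median of 0.17, and the medians were 0.28 for megakaryocyte, 0.61 for mast cell and basophil, 0.34 for lymphoid, 0.82 for endothelial, 0.74 for smooth muscle and -0.26 for fibroblast feeder markers. Over the same arrays the mean level of the 40 effector genes was 0.03 to 0.19 without DOX and -1.42 to -0.88 with DOX. The part of a changed mix of cells in the lower effector gene values was not tested.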

How the data were processed

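The authors hybridised Cy3-labelled total RNA of each sample to a 1-colour Agilent mouse array and deposited, per the file headers, Feature Extraction 10.7.3.1 output with a background-subtracted processed signal (intensity) for 62976 spots. The authors also deposited a table of processed log2 values for the same 27 arrays, used as an alternative only. Control spots and outlier-flagged spots were left out, spots of 1 probe were averaged (55681 probes), and log2 signals were centred on each array's 75th percentile over all spots that are not controls. The scaling and averaging choices tried numbered 4, all compared after seeing the data. With the percentile over averaged probes, 2 members (Slc2a6 and Hpgd) and 10 genes were called with DOX in HP cells, and with the setting kept here, 1 and 8.

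Genes were tested with limma 3.58.1 in R 4.3.3 (1 mean per group, no covariate, 14 residual and 4.34 prior degrees of freedom, Benjamini-Hochberg adjustment within each comparison), checked on simulated data. Members of no test had no probe well above background on all arrays of either group. Groups came from the sample labels. Values on every array are given for members called with DOX, for members at least 2-fold apart without overlap in HP cells, and for lysozymes, C1q chains and oxidase genes, and for each step the 8 called members with the largest change are named. The members and gene lists were chosen with earlier results of these data known. Alternatives were normexp background correction with an offset of 50, quantile normalization, the authors' values, no filter on dim probes, the mean of all probes of a gene, a block for slide (fixed or random), for scan day or for replicate number, and leaving out each array. The number of arrays limits the precision. No member spot was saturated (0), and 0 pairs of arrays were identical. The arrays came from 5 slides and 4 scan days.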

Additional observations from a re-analysis of the deposited data

How the results depend on the processing

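In HP cells the count of members called with DOX was 1 and became 6 with normexp (0.139% of all genes called), 11 with the authors' values (0.542%), 3 with slide as a fixed block (0.0916%), 7 with slide as a random block (0.203%) and 3 with scan day as a block (0.0717%). It was 2 with the percentile over averaged probes and 2 with both scaling changes, which were added after seeing the data. It was 0 with a replicate block common to all groups, which did not pair arrays (Slc2a6 adjusted p = 0.0535, limma). Same-numbered HP arrays share a slide, and with 2 arrays per group their deviations correlated at 0.684, so the numbers are no proof of pairing by culture. The HP median was -0.87 with normexp and -1.88 to -1.08 with 1 array left out. The 21 members followed here were picked for a 2-fold difference without overlap, which largely fixes their direction. Of their 336 values under 16 alternatives 27 newly passed the threshold and 5 lost it. The HE2 median was -0.39 with normexp and -0.90 to -0.67 with 1 array left out. The HE1 median was -0.31 with normexp, -0.35 with all probes averaged and -0.41 to 0.24 with 1 array left out. The FLK1+ 5h median was -0.05 with quantile normalization, -0.11 with the authors' values and 0.13 to 0.93 with 1 array left out. With 1 array left out the median ran from -0.09 to 0.24 in d1 BC and from -0.92 to 0.47 in SM. The median of all genes moved too in such fits. It ran from -0.12 to 0.34 in d1 BC, from -0.16 to 0.48 in SM and from -0.19 to 0.27 in HE1. In FLK1+ 5h it ran from -0.08 to 0.22, in HE2 from -0.05 to 0.36 and in HP from 0.12 to 0.38. Called from HE1 to HE2 were 12 with quantile normalization, 15 with the authors' values, 11 with slide fixed, 13 with slide random, 11 with scan day (4.71 to 5.67% of all genes called under these 5), and 4 to 6 with 1 array left out. From HE2 to HP they were 7 with normexp, 3 with quantile normalization, 10 with the authors' values, 1 with slide fixed, 4 with slide random, 3 with scan day (0.0711 to 0.727% of all genes), and 0 to 1 with 1 array left out. The ranges with 1 array left out were 15 to 18 for HP against HE1, 15 to 24 for HP against SM and 4 to 6 for HP DOX against HE1 DOX. The cause was not tested. Dim genes near background, and 2 arrays per group, limit all of these values.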
